A study of Mus musculus with 29 samples.

Results

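The expression of 10 genes of the B cell receptor and of B cell identity was followed in the colon of mice given dextran sodium sulphate (DSS), which causes colitis. The genes were Cd79a, Cd79b, Ms4a1, Cd22, Blk, Pax5, Cd72, Bank1, Spib and Fcrla, taken by gene symbol. All 10 were measured, each by 1 probe set, out of 19938 genes with a symbol of their own on the array. Values are log2 expression levels, so a difference of 1 is a fold of 2.

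DSS in the drinking water damages the colon epithelium, and inflammation follows. All mice were female and labelled C57BL6J (C57BL/6 in the study's methods). The age of 6 weeks in the labels of every group is that at the start of the study, and by the methods all groups were killed at the same, later age. A piece of the most infiltrated colon of each mouse was hybridized to 1 array. Acute colitis mice (n = 4: B2, B3, B4 and C3) received DSS for 7 days and were killed without recovery, and 1 more array of this group was not analysed here. A cycle was 7 days of DSS and 2 weeks of normal water, and mice received 1 cycle (n = 5: J1, J5, K1, K2 and K3), 2 cycles (n = 5: D4, D5, E2, E3 and E4) or 3 cycles (n = 5: F1, F3, F5, G2 and G3). The recovery group received 2 cycles and then 3 additional weeks of normal water (n = 5: M1, M3, M5, N2 and N3). Control mice drank normal water throughout (n = 5: A1, A2, A5, L1 and L2). The groups therefore also differ in the time between the first DSS and death, and by the methods the DSS concentration was higher in the later cycles than in the first. Where values are given mouse by mouse, they follow this order.

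A B cell recognizes antigen with a membrane antibody. This antibody has almost no cytoplasmic tail, and it signals through the paired chains CD79A and CD79B, which are phosphorylated by Src family kinases such as BLK. Surface proteins such as CD22 and CD72 restrain the signal, and the transcription factor PAX5 keeps a cell a B cell until it becomes a plasma cell and switches most of these genes off. In the colon, B cells lie mainly in isolated lymphoid follicles and in the larger lymphoid patches, while plasma cells that secrete IgA are spread through the lamina propria.

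The promoter sequences of the genes were looked at because the 10 genes moved together over the mice, as described below. The 250 bases before the annotated start (RefSeq, mouse build GRCm38.p6) were present for 7 of the 10 genes. Spib encodes a factor of the ETS family, and the ETS core letters GGAAGT, searched on both strands, were found in the windows of Cd79a, Cd72 and Bank1. These windows are shown with the match in capitals, and a match on the opposite strand reads ACTTCC. The Cd79a window is chr7:24897247-24897496 on the plus strand. The Cd72 window is chr4:43454627-43454876 and the Bank1 window is chr3:136326067-136326316, both on the minus strand. The Cd72 window lies inside the annotated span of the gene, and the Bank1 window reaches into it.
Cd79a: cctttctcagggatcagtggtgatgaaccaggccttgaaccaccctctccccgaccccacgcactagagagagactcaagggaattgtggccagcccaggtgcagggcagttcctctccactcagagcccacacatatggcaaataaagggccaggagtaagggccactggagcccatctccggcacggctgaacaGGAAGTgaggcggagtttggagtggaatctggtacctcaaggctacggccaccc
Cd72: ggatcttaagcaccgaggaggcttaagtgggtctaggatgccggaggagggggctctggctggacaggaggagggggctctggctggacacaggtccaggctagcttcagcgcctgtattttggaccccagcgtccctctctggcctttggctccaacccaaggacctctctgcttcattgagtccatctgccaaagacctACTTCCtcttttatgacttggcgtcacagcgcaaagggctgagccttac
Bank1: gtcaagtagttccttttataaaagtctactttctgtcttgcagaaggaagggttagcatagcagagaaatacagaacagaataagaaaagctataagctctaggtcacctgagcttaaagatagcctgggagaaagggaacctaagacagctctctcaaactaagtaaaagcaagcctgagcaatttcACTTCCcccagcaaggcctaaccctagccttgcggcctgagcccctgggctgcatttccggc
The core lay 54 to 49 bases before the start of Cd79a, 49 to 44 bases before that of Cd72 and 62 to 57 bases before that of Bank1. It was present in 3 of 7 windows of these genes, and in 19.7% of all 32851 promoter windows of the same length. The E box letters CAGGTG were in 4 of 7 windows (Cd79a, Cd22, Bank1 and Fcrla), against 17.2% of all windows. An EBF site, searched as TCCC and GGGA with any 2 bases between them, was in the Cd22 window alone among the 7, against 0.779% of all windows, and the octamer ATGCAAAT was in 0 of 7, against 1.6%. The 4 motifs do not overlap each other in these windows. The Cd22 and Fcrla windows, like that of Cd72, lie inside the annotated spans of their genes. A match of letters is a description of the sequence and does not show binding.

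Colon epithelial markers were present in every array. The epithelial marker Epcam lay between 10.26 and 10.81 in all 29 arrays, and the mucin gene Muc2 between 12.40 and 13.46. Krt5, a keratin of stratified epithelium, which the colon lacks, was at 10.91 in 3-cycles mouse G3 and at 10.19 to 12.15 in recovery mice M1, M3, N2 and N3, against at most 6.10 in all other arrays. The arrays fell into 2 sets by the probe set with no gene listed that had the widest gap between arrays. It was at most 8.14 in 14 arrays (all control and 1-cycle mice, acute mice B2 and B3, and 2-cycles mice D4 and D5) and at least 11.09 in the other 15 (acute mice B4 and C3, 2-cycles mice E2, E3 and E4, and all 3-cycles and recovery mice). What the sets are is not given in the sources used here. Group and set therefore overlap in part, and where the set as a term changed the number of genes called, that number is given beside the result.

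Most of the B cell genes rose in mice with 1, 2 or 3 cycles relative to control mice, and none of the 10 was called in acute colitis. The test sets a difference of group means against the spread between mice, which the model takes as the same in all 6 groups. The number of arrays limits its precision. In comparison with controls, a gene was called when limma's adjusted p over all probe sets was under 0.05 and the fold was above 2. Of the 10 genes, 0 were called in acute colitis, 8 after 1 cycle, 8 after 2 cycles, 7 after 3 cycles and 7 after 2 cycles with additional recovery. Of all probe sets, 1.38%, 0.87%, 0.907%, 1.02% and 1.08% were called higher in this order. With the 2 sets of arrays as a term, 6 of the 10 genes were called after 2 cycles, 0 after 3 cycles and 0 after additional recovery. In bulk colon, more B cells in the tissue and more RNA of these genes per cell cannot be told apart.

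Cd79a and Cd79b encode the signalling chains of the receptor. Cd79a was at 4.36, 5.62, 6.48 and 4.64 in acute colitis, against 4.77, 5.82, 4.98, 4.37 and 6.03 in controls. The acute and control values lay in the same range, with a difference of 0.08 (95% interval -0.84 to 1.00, adjusted p = 0.927). Cd79a was at 7.20, 6.83, 7.79, 7.14 and 6.34 after 1 cycle, at 7.69, 6.76, 7.32, 7.01 and 7.11 after 2 cycles and at 6.56, 6.75, 6.79, 8.02 and 7.08 after 3 cycles. It was at 8.12, 7.30, 6.17, 7.94 and 6.07 after additional recovery. Every mouse of these 4 groups lay above the highest control, although recovery mice M5 and N3 were only just above it. The differences from controls were 1.86, 1.98 and 1.84 after 1, 2 and 3 cycles and 1.92 after additional recovery, each with an SE of 0.42, and the adjusted p lay between 0.00384 and 0.00667.

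Cd79b encodes the partner chain. It was at 6.29, 7.54, 7.88 and 6.88 in acute colitis, against 6.85, 7.49, 6.56, 6.30 and 7.60 in controls. It was at 8.97, 8.66, 9.38, 8.69 and 8.47 after 1 cycle, at 9.50, 8.49, 8.77, 8.94 and 8.84 after 2 cycles and at 7.68, 8.71, 8.24, 9.57 and 8.86 after 3 cycles. It was at 9.38, 8.90, 7.83, 9.33 and 7.78 after additional recovery. The acute values again overlapped those of controls, and all 20 other DSS mice lay above the highest control, with 3-cycles mouse F1 and recovery mice M5 and N3 closest to it. Cd79b was 3.66-fold higher after 1 cycle, 3.85-fold after 2 cycles, 3.14-fold after 3 cycles and 3.21-fold after additional recovery (adjusted p between 0.00138 and 0.0033), and the difference in acute colitis was 0.19 (95% interval -0.59 to 0.97, adjusted p = 0.774).

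Ms4a1, Cd22 and Cd72 encode surface proteins of mature B cells. Ms4a1 (CD20) is lost when a B cell becomes a plasma cell. It was at 4.86, 6.28, 5.74 and 4.90 in acute colitis, against 4.79, 5.73, 4.94, 4.67 and 5.53 in controls. It was at 7.32, 7.26, 8.05, 6.94 and 7.06 after 1 cycle, at 8.31, 7.04, 6.86, 7.29 and 7.22 after 2 cycles and at 5.40, 6.89, 6.03, 7.90 and 6.57 after 3 cycles. It was at 7.75, 7.17, 5.36, 7.89 and 5.42 after additional recovery. After 1 and 2 cycles no mouse overlapped the controls, whereas F1, M5 and N3 lay inside the control range. The fold over controls was 4.57 after 1 cycle and 4.63 after 2 cycles, the highest of the 10 genes in both comparisons, and 2.68 after 3 cycles and 3.00 after additional recovery (SE of the log2 difference 0.46, adjusted p = 0.0041, 0.00417, 0.0335 and 0.0255 in this order).

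Cd22 encodes a sialic acid binding lectin that dampens the receptor signal. It was at 5.71, 6.83, 6.87 and 6.25 in acute colitis, against 5.66, 6.15, 5.47, 5.45 and 6.37 in controls. It was at 7.41, 7.34, 7.77, 7.26 and 7.27 after 1 cycle, at 8.01, 7.07, 7.04, 7.45 and 7.27 after 2 cycles and at 6.25, 7.30, 6.91, 7.96 and 7.28 after 3 cycles. It was at 7.62, 7.27, 6.30, 7.69 and 6.37 after additional recovery. Acute mice B3 and B4 lay above all controls while B2 and C3 lay among them, and the acute difference of 0.60 did not pass the test (adjusted p = 0.192). The differences were 1.59, 1.55 and 1.32 after 1, 2 and 3 cycles and 1.23 after additional recovery (SE 0.30, adjusted p between 0.00164 and 0.00863).

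Cd72 encodes a lectin-like protein that also restrains the receptor. In acute colitis it ranged between 6.51 and 7.18, against 5.76 to 6.59 in controls, and only acute mouse B2 was inside the control range. Its acute difference of 0.68 was the highest of the 10 genes and had an unadjusted p of 0.0303, but it did not pass after adjustment (adjusted p = 0.104). Cd72 was 3.01-fold higher after 1 cycle, 3.23-fold after 2 cycles, 2.74-fold after 3 cycles and 2.58-fold after additional recovery, and no mouse of these groups overlapped the controls (adjusted p between 0.000502 and 0.0025).

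Blk and Bank1 act inside the cell. BLK is a Src family kinase of B cells, and BANK1 is an adaptor that brings such kinases to their substrates. Blk had adjusted p-values between 0.013 and 0.0475 in the 4 comparisons of chronic and recovery mice with controls, but its folds of 1.66, 1.90 and 1.70 after 1, 2 and 3 cycles and 1.76 after additional recovery stayed under 2. Bank1 rose 3.63-fold after 1 cycle, 3.47-fold after 2 cycles, 2.70-fold after 3 cycles and 2.71-fold after additional recovery. Its values after 1 and 2 cycles were all above the highest control of 6.17, while F1 at 6.06, M5 at 5.90 and N3 at 5.96 were not. In acute colitis the differences were 0.26 for Blk and 0.14 for Bank1, with adjusted p = 0.479 and 0.863.

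Pax5 was at 5.55, 5.98, 6.15 and 5.60 in acute colitis, against 5.52, 5.82, 5.67, 5.80 and 5.94 in controls. It was at 6.60, 6.39, 7.05, 6.43 and 6.42 after 1 cycle, at 7.16, 6.30, 6.27, 6.77 and 6.65 after 2 cycles and at 5.84, 6.52, 6.19, 7.03 and 6.54 after 3 cycles. It was at 7.20, 6.60, 5.71, 7.04 and 5.94 after additional recovery. All mice after 1 and 2 cycles lay above the controls, whereas F1 and M5 did not and N3 was level with the highest control. The differences from controls were 0.83 after 1 cycle and 0.88 after 2 cycles, past the adjusted threshold but below a fold of 2. They were 0.67 after 3 cycles (adjusted p = 0.0516) and 0.75 after additional recovery (adjusted p = 0.0398), all with an SE of 0.24.

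Spib encodes the ETS factor SPI-B, which B cells share with M cells of the follicle epithelium and with plasmacytoid dendritic cells. It was 2.51-fold higher after 1 cycle, 2.67-fold after 2 cycles, 2.01-fold after 3 cycles and 2.16-fold after additional recovery (adjusted p between 0.00321 and 0.0168), and its acute difference was 0.08 (adjusted p = 0.883). The fold after 3 cycles lay at the threshold, and it dropped below 2 when arrays were centred or quantile normalized again, and without 1 of controls A1, A5 and L1 or 3-cycles mice F3 and G2. Of the M cell list, 2 of 7 genes (Ccl9 and Tnfaip2) were called higher in acute colitis and 0 of 7 after 1 or 2 cycles. Tnfaip2 was also called after 3 cycles (1.03) and after additional recovery (1.25), as 1 of 7 in each. The defining gene of M cells, Gp2, averaged 4.44 ± 0.16 in acute colitis (SD, n = 4), 4.62 ± 0.14 after 1 cycle and 4.91 ± 0.50 after 2 cycles (n = 5 each), against 4.53 ± 0.09 in controls (n = 5). Of the plasmacytoid dendritic cell list, 0 of 6 were called in acute colitis and after 1 or 2 cycles, and 1 of 6 after 3 cycles and after additional recovery. In both it was Ly6d (1.13 and 1.93), which is not particular to these cells. Siglech, which defines these cells, differed by 0.13 between 2 cycles and controls (adjusted p = 0.738). Other genes of the 2 lists passed the adjusted threshold with folds under 2. After 1 cycle these were Ccl9 (0.97) of the M cell list and Ccr9 (0.78) and Irf7 (0.74) of the dendritic cell list. After 2 cycles they were Ccr9 (0.79) and Bst2 (0.35), both of the dendritic cell list. The part of M cells and plasmacytoid dendritic cells in the Spib values was not tested.

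Fcrla encodes a protein of the Fc receptor-like family that stays inside B cells. It was called after 1 cycle (2.19-fold) and 2 cycles (2.47-fold). After 3 cycles and after additional recovery it passed the adjusted threshold with folds of 1.92 and 1.88, below 2. In acute colitis it ranged between 5.0 and 5.80, against 4.90 to 5.55 in controls, and the groups overlapped (difference 0.12, adjusted p = 0.778).

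**Figure D1:**
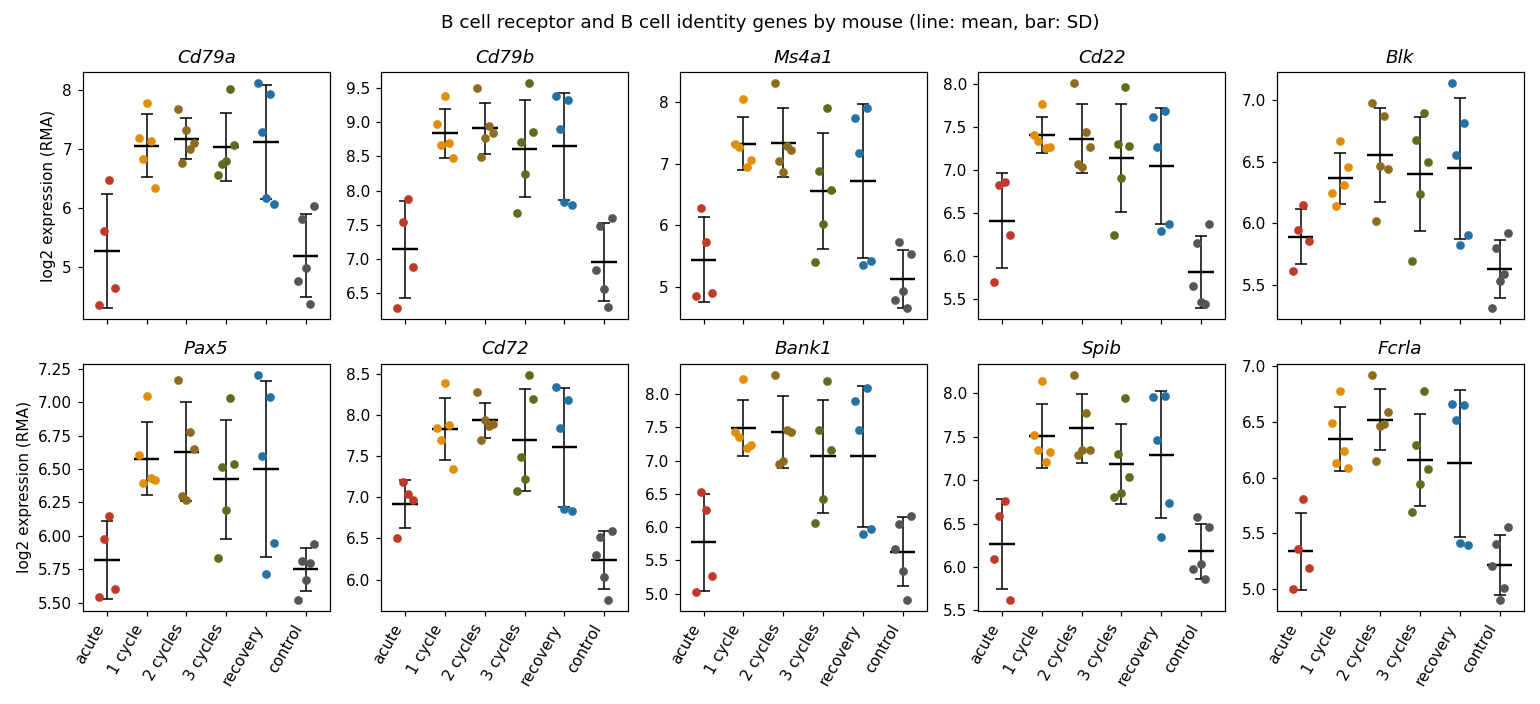
Log2 expression of each gene by mouse in the 6 groups, with the group mean (line) and SD (bar); each panel has its own axis range. Acute mice overlap control mice for all 10 genes, mice after 1 and 2 cycles lie above the controls for all 10, and the recovery group is widely spread.

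The calls were counted beside those over all probe sets. In acute colitis 0 of 10 were called higher, against 1.38% of all probe sets, and the median difference of the 10 genes was 0.16, beside 0.04 over all probe sets. Only Cd72 of the 10 had an unadjusted p under 0.05 there. After 1 cycle 8 of 10 were called higher, against 0.87% of all probe sets, with a median difference of 1.59 and 10 of 10 genes without overlap of the groups. After 2 cycles 8 of 10 were called higher, against 0.907%, with a median of 1.62 and again 10 without overlap. Blk and Pax5 were the 2 not called in both comparisons. All comparisons with controls share the same 5 control mice. With any 1 mouse left out, 8 genes were called after 1 cycle and 8 or 9 after 2 cycles. With the 2 sets of arrays as a term, 6 of 10 were called after 2 cycles, and Cd79a (adjusted p = 0.0621) and Bank1 (adjusted p = 0.0598) were not. Within the low arrays the count was also 6, and Cd79a (adjusted p = 0.0679) and Bank1 (adjusted p = 0.0578) were again not called.

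After 3 cycles 7 of 10 were called higher, against 1.02% of all probe sets, with a median difference of 1.37 and 5 genes without overlap. The uncalled genes were Blk, Pax5 and Fcrla. The count was 4 without control A5, control L1 or 3-cycles mouse G2, and 8 without F1 or control L2. After additional recovery 7 of 10 were called higher, against 1.08%, with a median of 1.30 and 3 genes without overlap, and the same 3 genes were uncalled. The count was 4 without M1 or N2, and 8 without M5 or N3. With the 2 sets of arrays as a term, 0 of 10 were called after 3 cycles (median difference 1.39, adjusted p between 0.103 and 0.455) and 0 of 10 after additional recovery (median 1.34, adjusted p between 0.16 and 0.476). Controls and these groups share no set, so this fit separates set and group only through the acute and 2-cycles mice.

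Acute and chronic colitis were compared directly, as differences within the model fitted to all 6 groups, so the controls still entered the estimate of the spread. In acute colitis all 10 genes were lower than the mean of 1, 2 and 3 cycles, with a median difference of -1.08, beside 0.03 over all probe sets. Of the 10, 6 were called lower, against 0.631% of all probe sets. These were Cd79a (-1.82, SE 0.37, adjusted p = 0.0015), Cd79b (-1.64), Ms4a1 (-1.63), Bank1 (-1.55), Spib (-1.17) and Fcrla (-1.0). Spib was the 1 gene of the 10 whose acute mice, at 5.62 to 6.76, did not overlap the 15 chronic mice, at 6.80 to 8.21. Cd22 and Cd72 (each -0.89) and Pax5 (-0.73) passed the adjusted threshold with folds under 2, and Blk (-0.55, adjusted p = 0.0765) did not pass. Without acute mouse C3, 3 of 10 were called. With the sets of arrays as a term, 5 of 10 were called, with the difference of Fcrla just under a fold of 2.

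By number of cycles, 6 of 10 genes were called lower in acute colitis than after 1 cycle (0.498% of all probe sets), 7 than after 2 cycles (0.786%), 2 than after 3 cycles (0.58%) and 3 than after additional recovery (0.848%). The 2 genes against 3 cycles were Cd79a and Cd79b, and against recovery Spib was called as well. With only the compared groups fitted, the count was 3 against 1 cycle, 0 against 3 cycles and 0 against additional recovery. The count against 1 cycle was 3 with the sets of arrays as a term, and 1 without C3 or without 1-cycle mouse K1, and against 2 cycles it was 4 without C3. The count against 3 cycles was 1 without B2 and 4 without F1, and against recovery it was 5 without M5 or without N3. Within either set of arrays, where acute colitis has 2 mice, 0 of 10 were called in the 5 comparisons that could be made. All 10 genes were lower in acute colitis in each of them, with medians between -1.38 and -0.84.

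**Figure D2:**
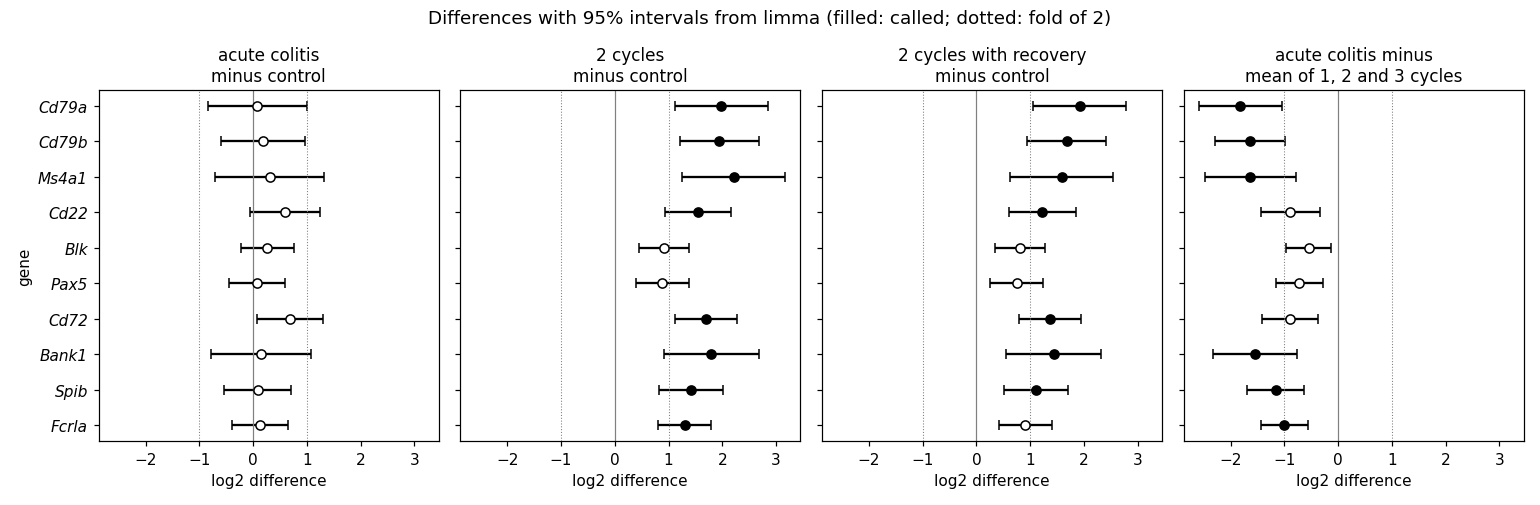
Log2 differences of the 10 genes in 4 comparisons, with 95% intervals from limma; filled points are called, and dotted lines mark a fold of 2. Intervals include 0 for 9 of 10 genes in acute colitis against controls, and all 10 intervals exclude 0 in the 3 other panels.

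Among the chronic groups no gene of the 10 was called. The numbers were 0 of 10 for 2 cycles against 1 cycle, 3 cycles against 2 cycles and recovery against 3 cycles (0% of all probe sets each). They were 0 of 10 for 3 cycles against 1 cycle (0.121%), recovery against 2 cycles (0.161%) and recovery against 1 cycle (0.276%), and 0 of the 10 genes had an unadjusted p under 0.05 in these 6 comparisons, although 2056 to 6560 of all probe sets did. The intervals were wide. Cd79a after 2 cycles differed by 0.12 from 1 cycle (95% interval -0.75 to 0.98), and Ms4a1 after 3 cycles differed by -0.79 from 2 cycles (95% interval -1.74 to 0.17, adjusted p = 0.519). After additional recovery the median difference from 2 cycles was -0.31, all 10 genes had a negative value, and Ms4a1 differed by -0.62 (95% interval -1.58 to 0.33, adjusted p = 0.752).

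The recovery group was split by mouse. M5 and N3 were the lowest pair of the 5 mice for 10 of 10 genes, and M1 and N2 the highest pair for 10 of 10. The gap between the lowest of M1, M3 and N2 and the highest of M5 and N3 ranged between 0.65 (Pax5 and Blk) and 1.76 (Ms4a1). For all 10 genes, M5 and N3 lay below every 2-cycles mouse, and for 5 genes both lay at or below the highest control. The SD within the recovery group had a median of 0.73 over the 10 genes, and it was the largest of the 6 groups for 9 genes. The median SD was 0.60 after 3 cycles, 0.53 in acute colitis, 0.38 after 2 cycles, 0.36 after 1 cycle and 0.38 in controls. Over all probe sets the median SD was 0.15 in the recovery, the 2-cycles and the 3-cycles group, and 0.19 in acute colitis.

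In each other group, too, the genes ordered the mice in much the same way. Averaged over the 10 genes and relative to the control mean, acute mice B3 and B4 lay at 0.61 and 0.74, and B2 and C3 at -0.28 and -0.06. Mouse K1 was the highest 1-cycle mouse for 10 of 10 genes (mean 2.05), D4 the highest 2-cycles mouse (2.16) and G2 the highest 3-cycles mouse (2.10), and F1 the lowest 3-cycles mouse (0.53), each for 10 of 10. Control mice A2 and L2 were the upper pair for 10 of 10 genes.

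**Figure D3:**
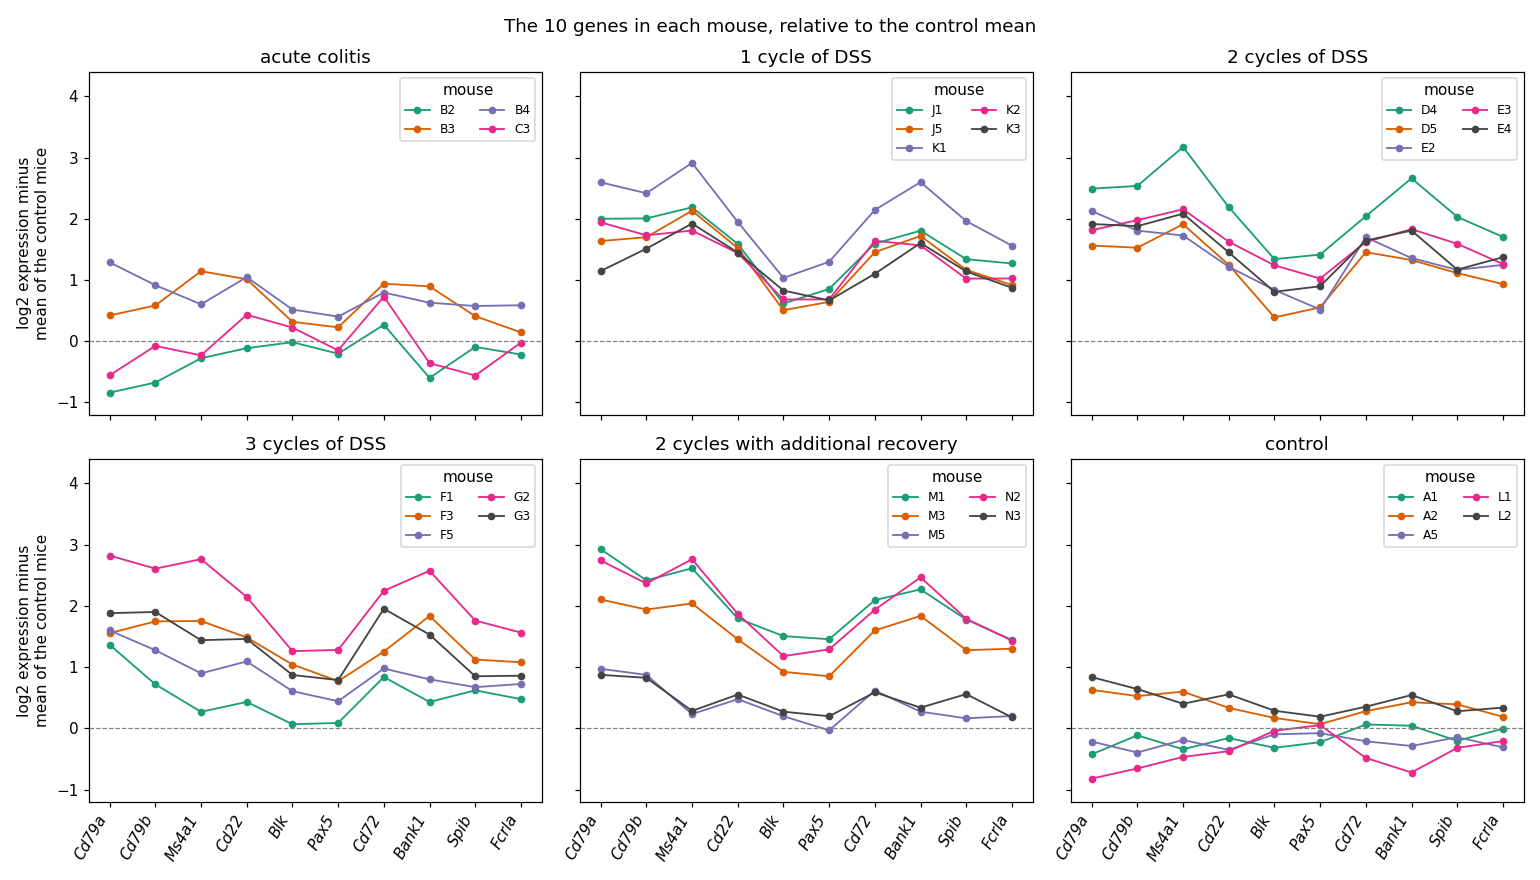
Log2 level of each of the 10 genes in each mouse minus the mean of the control mice, 1 line per mouse and 1 panel per group. The highest and lowest lines are mostly the same mice across genes, with M5 and N3 low in the recovery panel and F1 low in the 3-cycles panel; Blk and Pax5 have the smallest differences in most mice.

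Other B cell genes were counted on lists. Of 11 measured surface receptors beside the 10 genes, 1 was called higher in acute colitis, 7 after 1 cycle, 6 after 2 cycles, 3 after 3 cycles and 4 after additional recovery. The median difference from controls was 0.22 in acute colitis and 1.11 after 2 cycles. After 2 cycles the called genes included Cr2 (1.90), the complement receptor of follicular B cells, Cd180 (1.75), a Toll-like receptor relative, Cd37 (1.56), a tetraspanin, and Tnfrsf13c (1.23), the receptor for BAFF. The 1 called in acute colitis was Cd40 (1.01), which macrophages and dendritic cells also carry. Against the mean of 1, 2 and 3 cycles, acute colitis had 4 of 11 called lower, namely Cr2 (-1.50), Fcer2a (-1.32), Fcmr (-1.24) and Cd37 (-1.04).

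The signalling molecules below the receptor formed another list. Of 12 measured, 3 were called higher after 2 cycles, namely Pik3ap1 (1.25), Rasgrp3 (1.11) and Btk (1.01), and the median difference was 0.68. In acute colitis Pik3ap1 was the 1 of 12 called higher than in controls (1.29), with a median of 0.46, and Vav1 (0.79), Pik3cd (0.75), Plcg2 (0.63) and Syk (0.62) passed the adjusted threshold with folds under 2. After 2 cycles Vav1 (0.81), Plcg2 (0.80), Pik3cd (0.67) and Syk (0.60) also passed the adjusted threshold with folds under 2. Syk encodes the kinase that binds phosphorylated CD79A and CD79B. Blnk, the linker below it, differed by 0.22 after 2 cycles (adjusted p = 0.297). In acute colitis against the mean of 1, 2 and 3 cycles, Rasgrp3 alone of the 12 was called lower (-1.33), and the list's median was 0.02. Of 6 inhibitory molecules, Fcgr2b and Pirb were called in acute colitis (1.56 and 1.67), and Fcgr2b and Inpp5d after 2 cycles (1.16 and 1.12). Fcgr2b, Pirb and Pik3ap1 are also known from macrophages and other myeloid cells.

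Of 11 B cell transcription factors beside Pax5 and Spib, 4 were called higher after each of 1, 2 and 3 cycles and after additional recovery. They were Ikzf3 (1.84 after 2 cycles), which encodes the lymphoid factor Aiolos, Ikzf1 (1.24), Pou2af1 (1.18), a coactivator of octamer sites, and Spi1 (1.14), which is also a myeloid factor. In acute colitis the 2 called genes were Spi1 (1.52) and Irf8 (1.07), both higher than in controls. Ebf1 (-0.64), Foxp1 (-0.62) and Bach2 (-0.49) were lower than in controls there, past the adjusted threshold but with folds under 2. Ikzf3, Pou2af1 and Ebf1 were called lower in acute colitis than in the mean of 1, 2 and 3 cycles (-1.23, -1.18 and -1.03). Of 4 measured germinal centre genes, 0 were called in any DSS group against controls. Bcl6 passed the adjusted threshold with folds under 2 in acute colitis (0.68), after 2 cycles (0.49) and after additional recovery (0.57). Gcsam (0.41) and S1pr2 (0.32) passed it in the same way after additional recovery alone.

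Markers of other cells moved with these genes in part. Of 8 plasma cell genes, 5 were called higher after 2 cycles, and 5 were called lower in acute colitis than in the mean of 1, 2 and 3 cycles (Jchain, Derl3, Mzb1, Irf4 and Tnfrsf17). Jchain, which joins secreted IgA and IgM, was at 7.18, 8.60, 7.44 and 7.87 in acute colitis, against 9.49, 9.60, 8.65, 9.04 and 9.49 in controls. All 4 acute mice lay below all 5 controls, and Jchain fell by 1.48 on the log2 scale. It was the 1 gene of the 8 called lower in acute colitis against controls, and Prdm1, a factor of plasma cell differentiation that other immune cells also use, was the 1 called higher (1.11), with a median of -0.10 over the list. Over the plasma cell list, the acute mice lay between -0.38 and 0.00 relative to the control mean, and the 2-cycles mice between 0.83 and 1.26. The 5 recovery mice lay between 0.58 (N3) and 1.24 (M3), with M5 at 1.0, all above the highest control at 0.20. Jchain was at 11.15 in M5 and 10.23 in N3, against 11.12, 11.18 and 11.25 in M1, M3 and N2.

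Follicle stroma was represented by 5 measured genes, of which 1 was called higher in acute colitis, 1 after 1 cycle, 2 after 2 cycles, 3 after 3 cycles and 2 after additional recovery. On this list, Ltb (called after 3 cycles, 1.01) and Lta encode lymphotoxins, which lymphocytes make, so the list is not of stroma alone. Cxcl13, the chemokine that draws B cells into follicles through Cxcr5, was at 10.56, 9.99, 8.54, 10.33 and 8.88 after additional recovery, with M5 and N3 inside the control range of 8.10 to 8.97. F1 was at 9.22, the lowest of the 3-cycles mice. In acute colitis Cxcl13 was called higher (1.12, adjusted p = 0.0192), and after 2 cycles it differed by 1.77 from controls. Cr2 likewise was at 4.93 in M5 and 5.32 in N3, against 7.11, 6.49 and 7.18 in M1, M3 and N2. Krt5 was at 12.15 in M1, 11.80 in M3, 10.19 in N2 and 11.90 in N3 and at 5.52 in M5, so it did not follow the split of the B cell genes. Averaged over each list and relative to controls, M5 and N3 were also the lowest recovery mice for follicle stroma (0.18 and 0.32, against 1.03 to 1.23 in the other 3), T cells (0.64 and 0.43, against 0.86 to 0.93) and macrophages and monocytes (0.83 and 0.64, against 0.92 to 1.03). The part of these cells in the results was not tested.

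T cells, myeloid cells and epithelium were counted in the same way. Of 9 measured T cell genes, 0 were called in acute colitis (median 0.45) and 4 after 2 cycles (median 0.76), namely Cd3g, Cd4, Cd3e and Cd2. In acute colitis Cd3g (0.99), Cd3e (0.72), Cd8b1 (0.49), Cd3d (0.45), Cd2 (0.43) and Cd8a (0.38) passed the adjusted threshold with folds under 2. Of 6 macrophage and monocyte genes, 5 were called higher in acute colitis (median 1.25) and 2 after 2 cycles. Neutrophils were represented by 7 genes, of which 4 were called in acute colitis, all higher, with S100a9 at 2.49 and Cxcr2 at 2.36, and 1 after 2 cycles (Cd177, 1.99). Of 8 colon epithelium genes, 0 were called after 2 cycles (median -0.05), and Aqp8 (-1.91) and Slc26a3 (-1.25), a water channel and a chloride exchanger, were called lower in acute colitis.

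**Figure D4:**
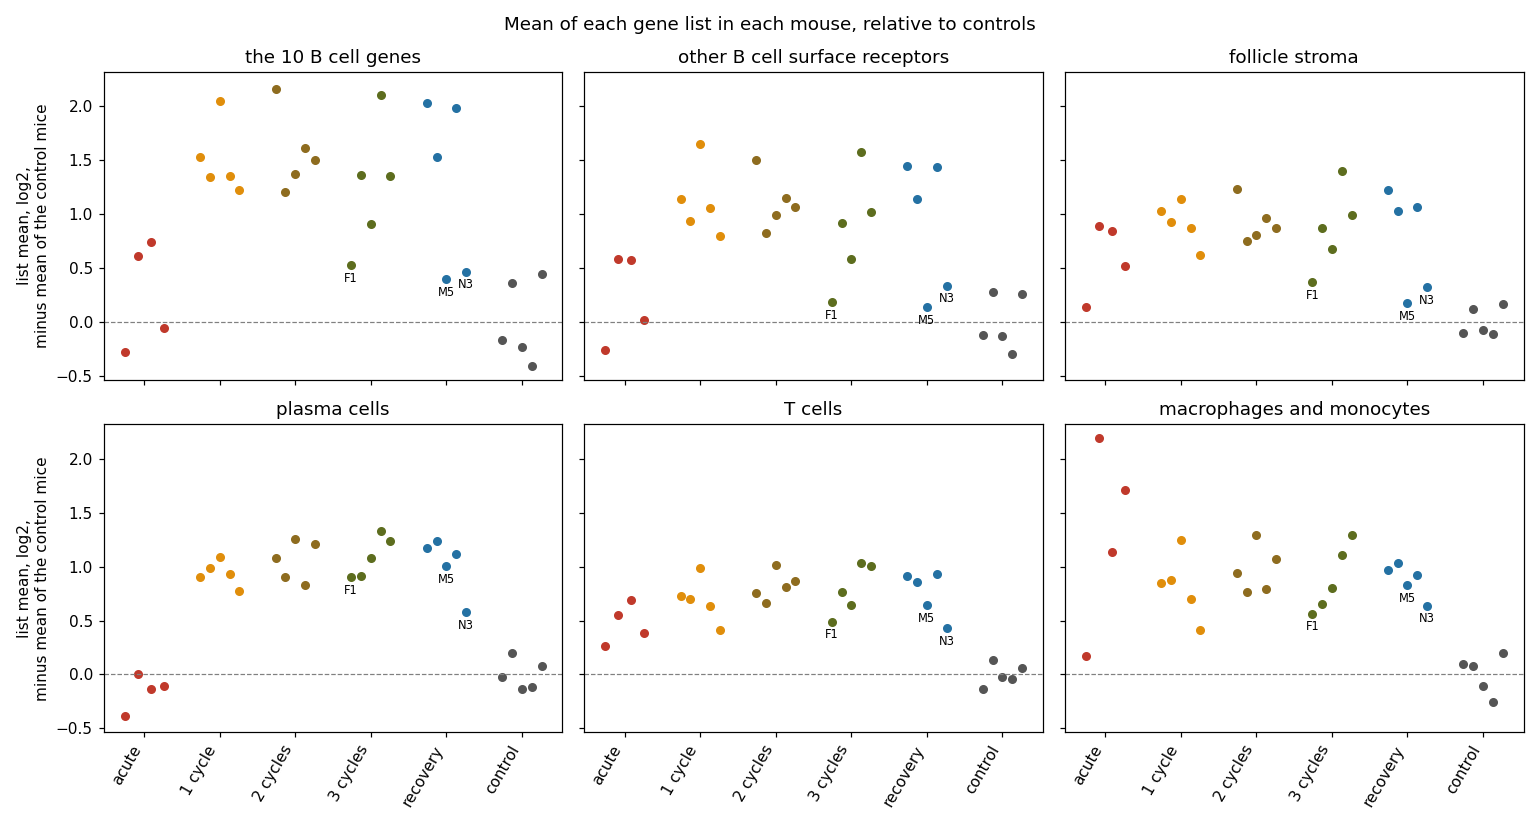
Mean log2 level of the 10 B cell genes and of 5 gene lists in each mouse, minus the mean of the control mice; 1 point is 1 mouse. F1, M5 and N3 are labelled and lie low in the B cell and follicle stroma panels, the acute mice are near the controls in the plasma cell panel, and 3 of the 4 acute mice lie at 1.14 or higher in the macrophage panel.

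The genes most like the mean pattern of the 10 were found among 19914 other genes by the mean absolute difference over the 29 arrays, after centring each gene on its own mean. This is a description and was not tested. Genes whose symbols begin with Igh, Igk or Igl, which include the antibody chains, were left out before the ranking. The 10 most alike were Ikzf3 (0.11), Cd37 (0.13), H2-Ob, Fcmr, Hvcn1, Cd180, Tnfrsf13c, H2-Eb2, Cxcr5 and Stap1 (0.21), and the median over all candidates was 0.68. H2-Ob and H2-Eb2 encode beta chains of MHC class II type molecules, and Hvcn1 encodes a proton channel. After 2 cycles H2-Eb2 differed by 2.04 and H2-Ob by 1.97 from controls, and in acute colitis by 0.30 and 0.19. Of the 10 genes themselves, Cd22 lay closest to their common mean (0.12) and Ms4a1 farthest from it (0.35).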

How the data were processed

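Colon RNA of 29 mice was hybridized to Affymetrix Mouse Gene ST arrays. The deposited values are log2 intensities that the authors made with RMA (background correction, quantile normalization and summary per probe set) in R 2.12.2. They covered 35511 probe sets, of which 21789 had 1 gene symbol, 1621 several and 12101 none in the platform annotation, and 0 columns were left out. Values lay between 1.93 and 13.97 and array medians between 6.02 and 6.14, and arrays correlated with each other at 0.943 to 0.992. The deposit gives no read depth, and the precision rests on the number of arrays.

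One model over the 6 groups was fitted with limma 3.58.1 (lmFit and eBayes, R 4.3.3), after a test on simulated data, and p-values were adjusted over all probe sets by Benjamini-Hochberg. All p-values in the text are two-sided, and they come from this model unless another fit is named beside them. All 10 genes are named, and list genes are named by call, adjusted p or size. Syk, Blnk, Bcl6, Lta, Gp2, Siglech and Krt5 are exceptions, added for their role after their values were seen. The members and lists were chosen with earlier results of these data known. Some genes of the lists are not reported here, and Cd5 stood on 2 lists. Alternatives were the compared groups alone, the 2 sets of arrays as a term, array weights, other priors, a filter on dim probe sets, another normalization and each mouse left out. The fits within each set of arrays were chosen after seeing the data.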

Additional observations from a re-analysis of the deposited data

Results flagged for a closer look

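Bank1 in 1-cycle mouse K1 was at 8.23, far from the other mice of its group, of which the next was at 7.43. This was 1 flag in 60 groups of values tested, and chance flags about 1 in 20.

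By limma's test of the difference itself, 9 of 10 genes were lower in acute colitis than in the mean of 1, 2 and 3 cycles (adjusted p under 0.05). For 6 of them the fold was also above 2. The log2 differences were -1.82 for Cd79a, -1.64 for Cd79b, -1.63 for Ms4a1, -1.55 for Bank1, -1.17 for Spib and -1.0 for Fcrla.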

How the results depend on the processing

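No paired analysis was possible because each mouse belongs to 1 group, the letters of the mouse codes are not shared between groups, and their digits recur within a group (B3 and C3, A2 and L2) with no meaning given in the labels. Each gene has 1 probe set, so the mean over probe sets of a gene was not run. Of the 570 values of single genes under another setting, 537 kept their direction and side of the threshold, 25 lost their call and 8 changed sign. Of the 680 values with 1 mouse left out, the numbers were 623, 38 and 12, and 7 gained a call.

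With only the compared groups fitted, the number of the 10 genes called was 3 for acute colitis against 1 cycle, 0 against 3 cycles and 0 against additional recovery. With the 2 sets of arrays as a term it was 0 for 3 cycles against controls, 0 for additional recovery against controls and 3 for acute colitis against 1 cycle. Within the low arrays it was 0 for acute colitis against 1 cycle and 0 against 2 cycles, and within the high arrays 0 against 2 cycles, 0 against 3 cycles and 0 against additional recovery. Fits within a set hold fewer mice. The cause of the other changes was not tested.

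With 1 mouse left out, 4 to 8 genes were called for 3 cycles against controls and 4 to 8 for additional recovery against controls. Acute colitis had 3 to 7 genes called against the mean of 1, 2 and 3 cycles, 1 to 7 against 1 cycle, 4 to 8 against 2 cycles, 1 to 4 against 3 cycles and 2 to 5 against additional recovery.

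The differences that changed sign were all uncalled ones of acute colitis against controls. Cd79a was at -0.0315 with the sets as a term, -0.22 with array weights and -0.21 within the low arrays. With array weights Pax5 was at -0.0258, Bank1 at -0.0286 and Spib at -0.0939, and within the low arrays Cd79b was at -0.0448 and Fcrla at -0.0358. With 1 mouse left out, the ranges were -0.32 to 0.38 for Cd79a, -0.0553 to 0.47 for Cd79b, -0.0418 to 0.16 for Pax5, -0.11 to 0.39 for Bank1, -0.0813 to 0.30 for Spib and -0.0313 to 0.24 for Fcrla.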
